A study of Homo sapiens with 6 samples.

Results

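The genes described are 9 components of MHC class I antigen presentation, namely HLA-B, HLA-C, HLA-E, HLA-F, B2M, TAP1, TAP2, TAPBP and ERAP1. They were taken by symbol from a deposited table of read counts for 12499 genes, and all 9 were found and passed the filter on low counts. The counts come from HaCaT cells, an immortalized human keratinocyte line, infected for 48 h with a lentivirus labeled LV-ATF7 (human ATF7) or with the negative control virus labeled LV-NC. Every culture was then kept in high glucose (HG) for 24 h, so that high glucose was shared by both groups, and each group had 3 libraries. The comparison asks which transcripts differ between ATF7 and control virus under HG. ATF7 is a transcription factor of the ATF/CREB family. Whether the 3 libraries of a group came from separate infections was not stated in the sources used here, so p-values measure the spread between these libraries, which may be technical.

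MHC class I molecules display peptides from inside the cell to CD8+ T cells and to receptors on NK cells. The proteasome and cytosolic peptidases cut proteins into peptides, the TAP1-TAP2 transporter moves the peptides into the endoplasmic reticulum, ERAP1 trims them there, and tapasin (TAPBP) helps load them onto a heavy chain (HLA-B, HLA-C, HLA-E or HLA-F) paired with beta-2 microglobulin (B2M). Interferons raise transcription of most of these genes, and keratinocytes, like nearly all nucleated cells, express class I.

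The libraries held 16686472 to 20562768 counts. ATF7 itself was measured at 50.6, 46.4 and 52.2 TMM-normalized CPM (counts relative to the scaled size of the library) in the LV-NC-labeled libraries and at 21.9, 25.7 and 28.0 CPM in the LV-ATF7-labeled ones, a log2 difference of −0.98 (SE 0.12, adjusted p = 0.000189). ATF7 was thus lower in the libraries whose label names it, which goes against the label, and 43.8% of its exon bases are shared with other annotated genes. All directions below are those of the library labels. LV-NC replicate 1 stood apart from the other two of its group, with correlations of log2 CPM across genes of 0.967 and 0.969 against 0.994 between those 2, and the libraries labeled LV-ATF7 correlated at 0.993 to 0.995 with each other. Of the 12462 genes tested, 67.6% had an adjusted p under 0.05 (edgeR, Benjamini-Hochberg), 34.7% being higher and 32.9% lower in the libraries labeled LV-ATF7, and the 2 groups did not overlap at 72.7% of genes.

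The 9 class I genes did not move in 1 direction. HLA-B, HLA-C, HLA-F, B2M, TAPBP and ERAP1 were higher in the libraries labeled LV-ATF7, by 1.29-fold (B2M) to 3.71-fold (HLA-F). HLA-E, TAP1 and TAP2 were lower, by 1.28-fold to 1.47-fold. All 9 passed the adjusted p threshold of 0.05 and at all 9 the groups did not overlap, to be read against the 67.6% and 72.7% of all genes above. An absolute log2 difference of at least 1 was reached by 3 of the 9, HLA-B, HLA-F and ERAP1, and by 33.2% of all genes tested. The median absolute log2 difference was 0.94 over the 9 genes and 0.67 over all genes tested. In bulk RNA, fewer cells of a type and less RNA per cell cannot be told apart.

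**Figure D1:**
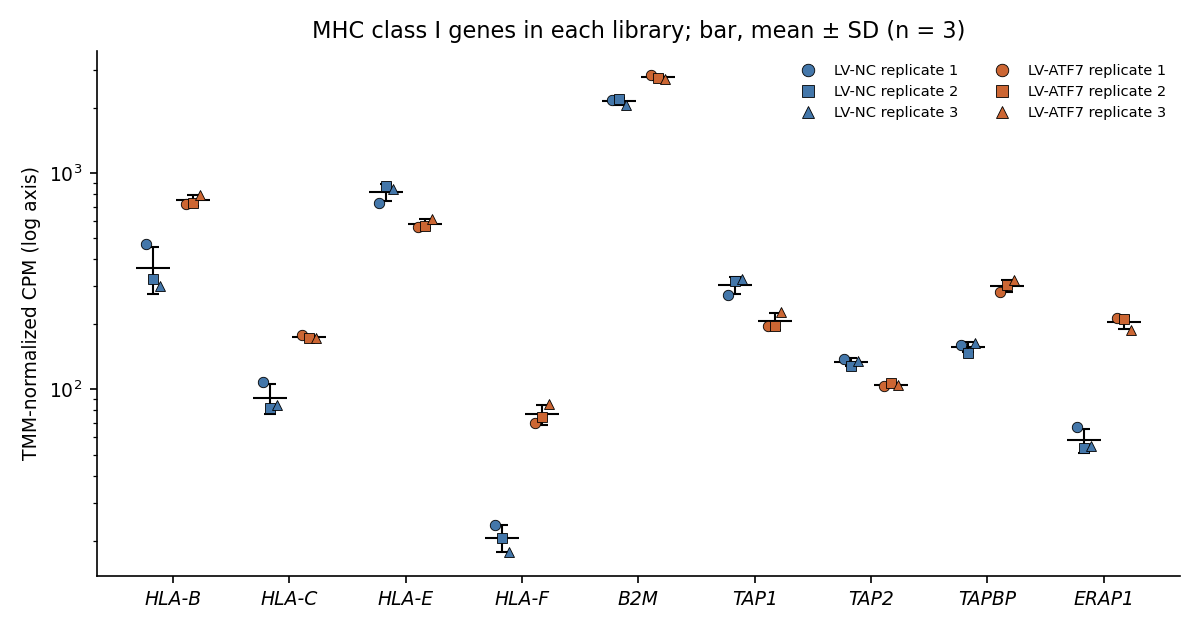
TMM-normalized CPM of the 9 class I genes in each library (points, log scale), by group, with bars for mean ± SD of 3 libraries. The points of the 2 groups are separate for every gene, with HLA-E, TAP1 and TAP2 lower and the other 6 higher in the libraries labeled LV-ATF7.

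Promoter sequences were read from RefSeq (GRCh38.p14), from 250 bases before the start site to 50 after, and were matched by symbol for 8 of the 9 genes, all but HLA-E. They are shown for 6 genes: the heavy chains HLA-B, HLA-C and HLA-F and the light chain B2M, which were higher, and TAP1 and TAPBP, which moved in opposite directions although both hold the same interferon-type letters. Each is written 5′ to 3′ along the gene, and capitals mark letters searched for on both strands.
HLA-B (chr6:31357130-31357429, minus strand): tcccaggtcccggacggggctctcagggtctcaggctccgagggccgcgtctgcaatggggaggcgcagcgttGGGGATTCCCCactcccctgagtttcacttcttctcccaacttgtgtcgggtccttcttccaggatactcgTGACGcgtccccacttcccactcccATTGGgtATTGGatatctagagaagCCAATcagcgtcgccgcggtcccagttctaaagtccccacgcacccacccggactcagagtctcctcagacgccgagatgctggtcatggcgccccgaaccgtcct
HLA-C (chr6:31272043-31272342, minus strand): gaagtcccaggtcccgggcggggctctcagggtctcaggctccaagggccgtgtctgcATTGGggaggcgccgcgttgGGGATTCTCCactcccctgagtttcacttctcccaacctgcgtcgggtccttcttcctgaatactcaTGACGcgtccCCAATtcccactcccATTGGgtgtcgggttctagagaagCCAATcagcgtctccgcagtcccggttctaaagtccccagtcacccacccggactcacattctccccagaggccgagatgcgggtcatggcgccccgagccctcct
HLA-F (chr6:29723184-29723483, plus strand): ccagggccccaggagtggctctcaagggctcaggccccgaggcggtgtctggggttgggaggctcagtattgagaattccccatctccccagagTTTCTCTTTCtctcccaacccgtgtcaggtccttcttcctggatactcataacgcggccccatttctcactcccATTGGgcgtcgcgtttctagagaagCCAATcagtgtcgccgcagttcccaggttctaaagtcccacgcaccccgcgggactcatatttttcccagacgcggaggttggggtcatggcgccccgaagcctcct
B2M (chr15:44711267-44711566, plus strand): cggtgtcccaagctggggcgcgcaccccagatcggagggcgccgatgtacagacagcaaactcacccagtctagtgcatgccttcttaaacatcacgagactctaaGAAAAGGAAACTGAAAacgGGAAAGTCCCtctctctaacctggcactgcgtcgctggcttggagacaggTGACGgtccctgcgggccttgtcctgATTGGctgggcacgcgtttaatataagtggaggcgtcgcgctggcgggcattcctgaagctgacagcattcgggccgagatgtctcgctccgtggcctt
TAP1 (chr6:32853655-32853954, minus strand): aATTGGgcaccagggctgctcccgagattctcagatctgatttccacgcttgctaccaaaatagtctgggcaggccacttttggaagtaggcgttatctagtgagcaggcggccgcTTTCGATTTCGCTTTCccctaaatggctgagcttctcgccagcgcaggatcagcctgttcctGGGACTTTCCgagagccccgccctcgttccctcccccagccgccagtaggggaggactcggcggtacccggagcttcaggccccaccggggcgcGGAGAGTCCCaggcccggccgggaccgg
TAPBP (chr6:33314029-33314328, minus strand): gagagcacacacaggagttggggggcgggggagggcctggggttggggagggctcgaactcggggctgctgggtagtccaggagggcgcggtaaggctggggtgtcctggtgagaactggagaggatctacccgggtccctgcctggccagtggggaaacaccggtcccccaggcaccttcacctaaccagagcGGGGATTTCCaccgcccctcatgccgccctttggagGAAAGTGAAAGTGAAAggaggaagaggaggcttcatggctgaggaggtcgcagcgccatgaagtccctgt
The motifs were a GAAA pair (2 copies of GAAA with 2 bases between them, the core of interferon-stimulated response elements), TTCNNNGAA (core of interferon-gamma-activated sites), CCAAT (the NF-Y box), TGACG (part of the cyclic AMP response element that ATF/CREB factors are known to bind), TGACGTCA (the whole element, which contains TGACG) and the NF-kappaB consensus. Where matches overlap, the capitals run together, as for GAAA pairs in B2M, TAP1 and TAPBP and for the NF-kappaB consensus in HLA-B. The GAAA pair was found for 6 of the 8 genes (HLA-F, B2M, TAP1, TAP2, TAPBP and ERAP1) and in 3.6% of all 35116 promoters of the same length. A gene was counted if any of its listed promoters matched, and TAP1 and ERAP1 have 2 each. The percentages here are shares of promoters, so the units differ. No exact pair was found in the HLA-B or HLA-C window. Only exact matches were counted, so a near match was missed, and this does not show that an interferon element is absent there. The NF-kappaB consensus was found for 6 genes (HLA-B, HLA-C, B2M, TAP1, TAPBP and ERAP1; 11.3% of all promoters), and CCAAT for 6 (HLA-B, HLA-C, HLA-F, B2M, TAP1 and ERAP1; 34.6%). TGACG was found for 4 (HLA-B, HLA-C, B2M and TAP2; 24.6%) and TGACGTCA for 0 (1.8%). TTCNNNGAA was found for TAP1 alone, in its other listed promoter (7.7%). A match describes letters and not binding, and genes with a GAAA pair in the window were found in both directions, TAP1 and TAP2 being lower and the other 4 higher.

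HLA-B and HLA-C encode classical heavy chains and overlap on chromosome 6 as annotated (GRCh38, GENCODE release 29), HLA-B at 31269491 to 31357188 and HLA-C at 31268749 to 31272130, both on the minus strand, and they share 1.1% of HLA-B and 1.4% of HLA-C exon bases. HLA-B was at 469.5, 325 and 302 CPM in the LV-NC-labeled libraries and at 719.7, 729.8 and 794 CPM in the LV-ATF7-labeled ones. HLA-C was at 108, 82.0 and 84.5 CPM against 179, 174 and 173.5 CPM. For both genes LV-NC replicate 1 was the highest control library, and it still lay well under every library labeled LV-ATF7. HLA-B rose 2.05-fold (366 ± 90.8 to 748 ± 40.4 CPM, SD, n = 3; log2 difference 1.03, SE 0.17, adjusted p = 0.000905). HLA-C rose 1.92-fold (91.6 ± 14.5 to 175.5 ± 3.22 CPM; log2 difference 0.94, SE 0.12, adjusted p = 0.000243). Without LV-NC replicate 1 the log2 difference of HLA-B was 1.23. The ratio of HLA-B to HLA-C reads was 4.34, 3.97 and 3.57 in the controls and 4.02, 4.2 and 4.58 in the libraries labeled LV-ATF7, so the groups overlapped in this ratio. Of all 50-base stretches in the annotated transcripts of HLA-B, 2.7% also occur in another gene, as do 5.4% of those of HLA-C, and 18.9% of the exon bases of HLA-B overlap another gene, mostly on the opposite strand. How reads with such sequence were assigned is not given in the sources used here, so the split between these similar genes is uncertain.

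HLA-F and HLA-E encode nonclassical heavy chains. HLA-F is known to interact with NK cell receptors, and HLA-E presents mainly leader peptides of other class I chains to NKG2 receptors. HLA-F (chromosome 6, 29722775 to 29738528, plus strand) was at 23.6, 20.6 and 17.8 CPM in the controls and at 69.8, 74.6 and 86.0 CPM in the LV-ATF7-labeled libraries. It had the largest difference of the 9 genes, 3.71-fold (20.7 ± 2.92 to 76.8 ± 8.31 CPM; log2 difference 1.89, SE 0.14, adjusted p = 1.38e-05). Opposite-strand genes, among them HLA-F-AS1, cover 28.5% of its exon bases, and without strand information their reads cannot be told apart from its own. HLA-E (chromosome 6, 30489467 to 30494205, plus strand) went the other way, at 730.1, 869 and 846 CPM against 565, 569.6 and 615 CPM. It fell from 815.0 ± 74.4 to 583 ± 27.6 CPM (log2 difference −0.48, SE 0.11, adjusted p = 0.004), a 1.40-fold decrease. Its exons overlap no other annotated gene by position, but 4.3% of the 50-base stretches in its annotated transcripts also occur in another gene.

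B2M, the light chain shared by all class I molecules, was the most abundant of the 9 transcripts and had 1 of the 2 smallest differences. It lies on chromosome 15 (44711487 to 44718877, plus strand), away from the HLA genes. It was at 2177, 2201 and 2059 CPM in the controls and at 2854, 2739 and 2733 CPM in the LV-ATF7-labeled libraries. The groups did not overlap, and the mean rose 1.29-fold (2146 ± 76.2 to 2775 ± 68.3 CPM; log2 difference 0.37, SE 0.10, adjusted p = 0.0114). This call was lost when counts were scaled by library size alone (log2 difference 0.21, adjusted p = 0.0929) and without LV-ATF7 replicate 1 or without LV-NC replicate 3 (adjusted p = 0.0527 in each case), within a range of adjusted p over all 13 alternatives of 1.73e-06 to 0.0929.

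TAP1 and TAP2 encode the subunits of the peptide transporter, and both were lower. TAP1 (chromosome 6, 32845209 to 32853978, minus strand) was at 274, 317 and 322.5 CPM in the controls and at 196, 196 and 229 CPM in the LV-ATF7-labeled libraries. TAP2 (32821833 to 32838780, minus strand) was at 138, 128 and 136 CPM against 103, 107 and 104.5 CPM. In both genes the highest library labeled LV-ATF7 was below the lowest control library. TAP1 fell 1.47-fold (log2 difference −0.56, SE 0.11, adjusted p = 0.00228) and TAP2 fell 1.28-fold (log2 difference −0.35, SE 0.08, adjusted p = 0.00567). The ratio of TAP1 to TAP2 reads, 1.98, 2.48 and 2.37 in the controls and 1.89, 1.83 and 2.19 in the other group, overlapped between groups. Of the exon bases of TAP2, 32.3% are shared with AL669918.1 on the same strand, so its reads may have been split or dropped there.

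TAPBP and ERAP1, which act on peptides and heavy chains inside the endoplasmic reticulum, both rose. TAPBP (tapasin; chromosome 6, 33299694 to 33314387, minus strand) was at 160.0, 148 and 163 CPM in the controls and at 282, 302 and 321 CPM in the LV-ATF7-labeled libraries, a 1.92-fold difference (log2 0.94, SE 0.09, adjusted p = 6.04e-05). ERAP1, the aminopeptidase that trims the N-terminal end of class I peptides, lies on chromosome 5 (96760810 to 96808100, minus strand). It was at 66.9, 53.6 and 54.6 CPM against 213, 212 and 189 CPM, a 3.51-fold difference (log2 1.81, SE 0.12, adjusted p = 8.26e-06). Reads of TAPBP were 0.585, 0.467 and 0.506 of those of TAP1 in the controls and 1.44, 1.54 and 1.40 of them in the libraries labeled LV-ATF7. This ratio of reads, which is not divided by gene length, did not overlap between the groups.

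**Figure D2:**
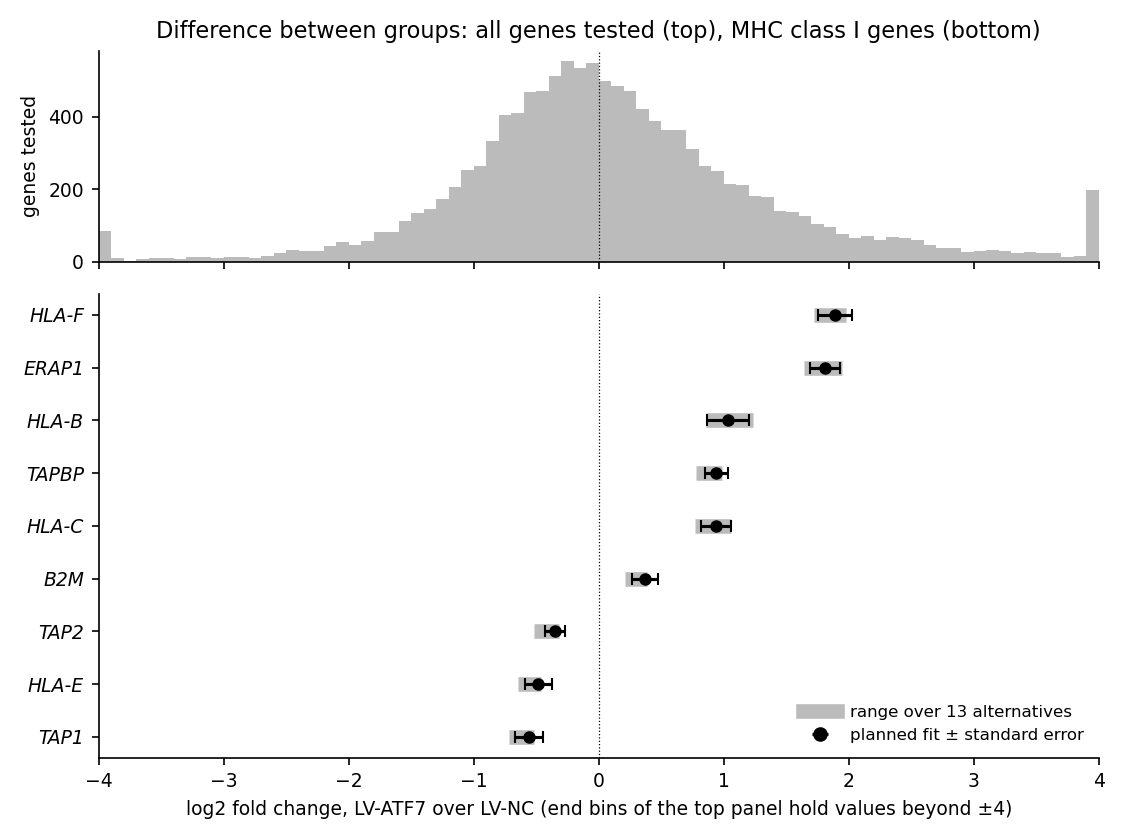
Distribution of the log2 difference between groups (LV-ATF7 over LV-NC) over the 12462 genes tested (top) and the value of each class I gene with its standard error, over a grey bar for its range across 13 alternatives (bottom). The grey bars of all 9 genes stay on their own side of 0, from −0.72 for the lowest value of TAP1 to 1.98 for the highest of HLA-F.

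HLA-B, HLA-C and HLA-F rose while HLA-E fell, and both the sum of the 4 heavy chain transcripts and the share of each gene in it differed between the groups. The summed level was 1331, 1297 and 1250 CPM in the controls and 1533, 1548 and 1668 CPM in the LV-ATF7-labeled libraries (1293 ± 40.8 to 1583 ± 74.1 CPM, SD, n = 3; log2 ratio 0.29, or 0.13 with counts scaled by library size alone). HLA-E made up 54.8%, 67.0% and 67.7% of these reads in the controls and 36.8% in each library labeled LV-ATF7. HLA-B made up 35.3%, 25.1% and 24.1% against 46.9%, 47.1% and 47.6%. HLA-B reads were therefore 0.643, 0.374 and 0.357 of HLA-E reads in the controls and 1.27, 1.28 and 1.29 of them in the other group, and LV-NC replicate 1 stood between the groups. HLA-C held 6.33% to 8.13% of the reads in the controls and 10.4% to 11.7% in the libraries labeled LV-ATF7, and HLA-F 1.42% to 1.77% against 4.55% to 5.15%. Set against the light chain, heavy chain reads were 0.612, 0.589 and 0.607 of B2M reads in the controls and 0.537, 0.565 and 0.611 in the libraries labeled LV-ATF7, and this ratio overlapped between groups. These shares and ratios are descriptions of each library and were not tested, and they rest on how reads of similar genes were assigned.

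**Figure D3:**
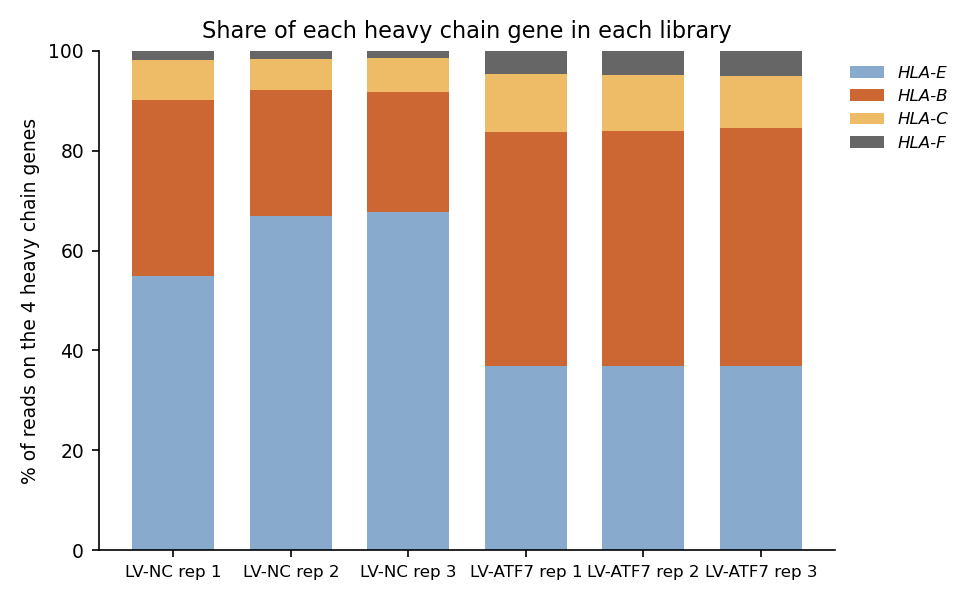
Share of reads (%) of each of the 4 heavy chain genes HLA-E, HLA-B, HLA-C and HLA-F in each library, with the bars stacked to the whole. HLA-E holds 54.8% to 67.7% in the 3 LV-NC libraries and 36.8% in each library labeled LV-ATF7.

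For the order of levels between genes, CPM was divided by exon length and given as CPM per kilobase of exon. The read ratios and shares above and below are not divided by length and serve to compare libraries. Exon length here covers every annotated exon of a gene, whichever of its transcripts were present. The order between genes depends on this length, and the lengths of the transcripts present were not measured. In the controls the order was B2M (353.0 ± 12.5), HLA-E (274 ± 25.0), HLA-B (119.8 ± 29.8), TAP1 (63.4 ± 5.56), HLA-C (36.5 ± 5.77), TAPBP (31.1 ± 1.58), TAP2 (21.0 ± 0.87), ERAP1 (7.35 ± 0.93) and HLA-F (4.76 ± 0.67), and the libraries of neighbors in this order did not overlap. In the libraries labeled LV-ATF7 the order was B2M (456.6 ± 11.2), HLA-B (245 ± 13.2), HLA-E (196 ± 9.27), HLA-C (70.0 ± 1.28), TAPBP (59.7 ± 3.83), TAP1 (43.1 ± 3.97), ERAP1 (25.8 ± 1.71), HLA-F (17.7 ± 1.91) and TAP2 (16.4 ± 0.32). There HLA-B stood above HLA-E, HLA-C and TAPBP above TAP1, and TAP2 last, and only HLA-F and TAP2 overlapped as neighbors. The deposited FPKM values were not used for this, since the gene lengths they imply were 1.41 (HLA-E) to 13.9 (TAPBP) times the exon length.

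Likeness across the 6 libraries was measured as the root mean square difference between the log2 CPM values of 2 genes after each was centered on its own mean, which is mostly the difference between the 2 groups. HLA-B was 0.112 from HLA-C, and 0.9% of genes were nearer to HLA-B than that. HLA-E was 0.0558 from TAP1, with 0.4% of genes nearer, and HLA-F was 0.164 from ERAP1, with 1.0% nearer. TAPBP was nearest to HLA-C (0.134, 2.7% nearer) and TAP2 to HLA-E (0.133, 7.1% nearer). B2M was close to none of the other 8, TAPBP being nearest at 0.301 with 31.2% of genes nearer. The genes outside the 9 nearest to HLA-B were FAM118A (0.0352), TCEAL8 (0.043) and PCK2 (0.0464), which shared its high value in LV-NC replicate 1. PCK2, for example, was at 155, 102 and 97.5 CPM in the controls and at 217, 227 and 259 CPM in the other libraries. The nearest to B2M were PCID2 (0.0174), IL15RA (0.0219), a subunit of the interleukin-15 receptor, and IRF2 (0.0252), an interferon regulatory factor.

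Upstream of the transporter, the catalytic immunoproteasome subunits rose while TAP1 and TAP2 fell, and PSMB8 and PSMB9 lie among the TAP genes in the MHC. Of 6 genes for the immunoproteasome and its PA28 activator, 5 were higher and 1 was lower, against 67.6% of all genes tested being called. The lower one was POMP, a proteasome assembly factor named here after its value was seen (log2 difference −1.24). Over the 13 alternatives 5 to 6 of these genes were called. The number was 5 with library size alone, without LV-NC replicate 3 and without any 1 of the libraries labeled LV-ATF7. PSMB8 (chromosome 6, 32840717 to 32844703, minus strand) was at 46.1, 56.4 and 52.2 CPM in the controls and at 158, 158 and 173.5 CPM in the LV-ATF7-labeled libraries (log2 difference 1.66, SE 0.11, adjusted p = 7.98e-06). PSMB9 (32844136 to 32859585, plus strand), whose annotated span covers that of TAP1 on the opposite strand, was at 75.1, 87.4 and 82.5 CPM against 198, 198 and 206 CPM (log2 difference 1.30, SE 0.09, adjusted p = 1.21e-05). These 2 genes and PSMB10 encode the catalytic subunits that replace the constitutive ones in the immunoproteasome, and PSMB10 had a log2 difference of 2.32 (SE 0.12, adjusted p = 3.31e-06). PSMB9 reads were 0.274, 0.276 and 0.256 of TAP1 reads in the controls and 1.01, 1.01 and 0.902 of them in the libraries labeled LV-ATF7. Opposite-strand genes cover 9.5% of TAP1 exon bases and 20.6% of those of PSMB8.

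**Figure D4:**
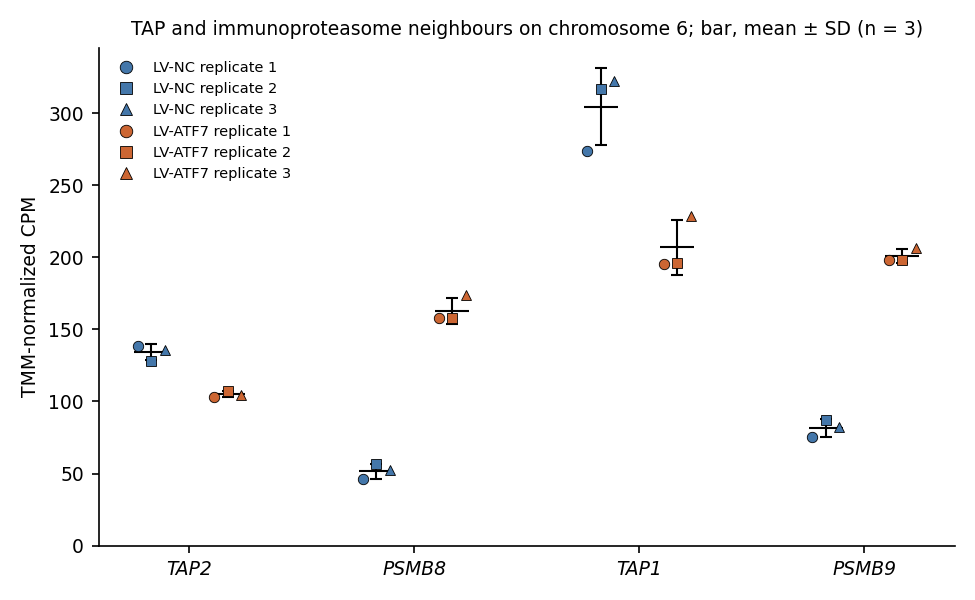
TMM-normalized CPM (linear scale from 0) of TAP2, PSMB8, TAP1 and PSMB9, neighbors on chromosome 6, in each library, with bars for mean ± SD of 3 libraries. TAP2 and TAP1 are lower, and PSMB8 and PSMB9 higher, in every library labeled LV-ATF7 than in any LV-NC library.

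Of the 3 constitutive catalytic subunits, PSMB7 was lower (log2 difference −0.87, SE 0.21, adjusted p = 0.00606), and PSMB6 (−0.52, adjusted p = 0.0571) and PSMB5 (0.08, adjusted p = 0.67) did not pass the test. The value of PSMB5 was negative with library size alone, in limma voom and without LV-NC replicate 1. LV-NC replicate 1 was lowest of the controls for each, for example PSMB6 at 99.3 against 185 and 174 CPM. Without that library 2 of the 3 were lower, as were 5022 of all 12495 genes tested. Reads of PSMB8 were 0.546, 0.437 and 0.421 of those of PSMB5 in the controls and 1.36, 1.35 and 1.40 in the other group. Among 8 cytosolic peptidases, which trim or destroy peptides before transport, 2 were higher and 3 lower, or 62.5% called against 67.6% of all genes tested. NPEPPS, the puromycin-sensitive aminopeptidase, was at a log2 difference of 0.72, NRDC (nardilysin) at 0.36 and PREP (prolyl endopeptidase) at −0.60. The NRDC call was lost with library size alone (log2 difference 0.19, adjusted p = 0.102) and without LV-NC replicate 3 (adjusted p = 0.0609), the alternatives spanning 1.84e-05 to 0.102. Leaving out LV-NC replicate 3 reduced the number of peptidases called from 5 to 2, and leaving out LV-NC replicate 2 or LV-ATF7 replicate 3 reduced it to 3.

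The next list held 10 chaperones and editors of peptide loading, all of the endoplasmic reticulum except LNPEP. Of these, 2 were higher, 5 were lower and 3 did not pass the test, with a median log2 difference of −0.27. The share called was 70.0%, near the 67.6% of all genes tested. PDIA3 (ERp57), the oxidoreductase bound to tapasin in the loading complex, was at 636, 680.2 and 636 CPM in the controls and at 437, 461.5 and 457 CPM in the LV-ATF7-labeled libraries (log2 difference −0.53, SE 0.09, adjusted p = 0.00103). HSPA5 (BiP), the general chaperone of this compartment, was at 4105, 2860 and 2777 CPM against 1198, 1194 and 1225 CPM, LV-NC replicate 1 being the highest (log2 difference −1.43, SE 0.17, adjusted p = 0.000144). LNPEP, an endosomal aminopeptidase used in cross-presentation, had a log2 difference of −1.32 (SE 0.09, adjusted p = 1.12e-05). The other 2 that fell, named after their values were seen, were calreticulin (CALR, −1.28) and calnexin (CANX, −0.54), the lectin chaperones of new heavy chains. The 2 that rose, also named afterwards, were TAPBPL (0.72), a tapasin-related peptide editor, and ERAP2 (0.73), a trimming aminopeptidase.

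Among 16 transcription factors of class I promoters, 8 were higher, 1 was lower and 7 did not pass the test. Called factors were 56.2% of the list, below the 67.6% of all genes tested. IRF1, an interferon-induced activator of class I and TAP genes, was at 92.5, 115 and 117 CPM in the controls and at 297, 307 and 339.5 CPM in the LV-ATF7-labeled libraries (log2 difference 1.54, SE 0.12, adjusted p = 1.84e-05). RFX5, part of the complex that binds the X box of MHC promoters, had a log2 difference of 1.49 (SE 0.14, adjusted p = 5.57e-05), and USF2 of 0.74 (adjusted p = 0.000191). NLRC5, the class I transactivator, was the member that fell, at 75.1, 93.4 and 89.4 CPM against 64.6, 62.8 and 73.4 CPM (log2 difference −0.36, SE 0.12, adjusted p = 0.0241). Its call was lost without LV-ATF7 replicate 1 (adjusted p = 0.0846) and without LV-ATF7 replicate 2 (adjusted p = 0.102), the alternatives spanning 4.71e-07 to 0.102.

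Of 12 interferon receptor and signaling genes, 5 were higher and 4 lower, or 75.0% called against 67.6% of all genes tested. Both chains of the interferon-gamma receptor were higher: IFNGR1 was at 116, 98.9 and 91.5 CPM in the controls and at 352, 334 and 302 CPM in the LV-ATF7-labeled libraries (log2 difference 1.69, SE 0.12, adjusted p = 1.18e-05), and IFNGR2 had a log2 difference of 1.40 (SE 0.16, adjusted p = 0.000116). SOCS3, an inhibitor of cytokine signaling, had a log2 difference of −1.18 (SE 0.11, adjusted p = 5.16e-05). The rest that fell, named after their values were seen, were SOCS1 (−1.63), JAK1 (−0.42) and JAK2 (−1.515). Of 34 measured interferon-induced genes, 22 were higher, 5 were lower and 7 did not pass the test, with a median log2 difference of 1.01. The share called was 79.4%, against 67.6% of all genes tested. Without LV-NC replicate 1 the numbers were 23 higher and 9 lower, and calls then rose over all 12495 genes tested, to 4989 higher and 5022 lower. UBE2L6, the conjugating enzyme for ISG15, was at 59.3, 58.5 and 56.7 CPM against 326, 316 and 345 CPM (log2 difference 2.50, SE 0.09, adjusted p = 9.36e-07). OAS2, an antiviral oligoadenylate synthetase, had a log2 difference of 2.58 (SE 0.12, adjusted p = 2.2e-06). IDO1, which breaks down tryptophan, had at most 2 counts in an LV-NC library and was at 9.43, 9.63 and 9.01 CPM in the others, at least 51.8-fold higher than a floor of 3 counts per library. The members that fell, named after their values were seen, were IFI6, IFI44, IFIT5, GBP3 and IRF7.

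MHC class II genes, which present peptides from outside the cell and are usually low in keratinocytes without interferon-gamma, were higher at all 12 measured (median log2 difference 2.47). Over all genes tested, 34.7% were higher. Over the 13 alternatives 9 to 12 of them were called. There were 12 without LV-NC replicate 1, 11 when any other single library was left out, and 9 where 10 counts were required in each library. That last filter left HLA-DPB1, HLA-DMB and HLA-DOA untested, since each had fewer than 10 counts in a control library. HLA-DMB and HLA-DOA are named only for this reason. CIITA, the class II transactivator, was at 5.25, 4.19 and 4.11 CPM in the controls and at 78.5, 86.2 and 95.3 CPM in the LV-ATF7-labeled libraries (log2 difference 4.26, SE 0.14, adjusted p = 8.33e-07). HLA-DMA, part of the class II peptide editor, had a log2 difference of 1.41 (SE 0.12, adjusted p = 3.19e-05). HLA-DPB1 had one of 3.08 (SE 0.37, adjusted p = 0.000171) from 6 to 20 counts per library in the controls. For several class II genes LV-NC replicate 1 was well above the other controls. CD74, named after its values were seen, was at 243, 44.9 and 40.2 CPM in the controls. In the libraries labeled LV-ATF7 it was at 545, 554 and 626.5 CPM.

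Of 11 class I-like genes and NK ligands tested, 5 were higher and 4 lower, or 81.8% called against 67.6% of all genes tested. Without LV-NC replicate 1 the numbers were 5 higher and 6 lower of 12, with 4989 higher and 5022 lower of all 12495 genes tested. ULBP3, a stress ligand of the activating receptor NKG2D, fell from 10.3, 18.4 and 17.8 CPM to 1.95, 1.78 and 2.16 CPM (log2 difference −2.98, SE 0.26, adjusted p = 3.66e-05). The other 3 that fell, named after their values were seen, were also NKG2D ligands, MICA (−0.99), MICB (−1.46) and ULBP2 (−2.2), while ULBP1 (−0.49, adjusted p = 0.116) did not pass the test. MR1, which presents vitamin B metabolites, was at 34.4, 28.7 and 25.5 CPM against 91.6, 92.8 and 91.6 CPM (log2 difference 1.64, SE 0.12, adjusted p = 1.66e-05). FCGRT, the heavy chain of the neonatal Fc receptor, had a log2 difference of 2.74 (SE 0.21, adjusted p = 1.84e-05). MR1 and FCGRT, like the class I heavy chains, pair with B2M.

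Of 8 measured genes of class I turnover, 2 were higher and 5 lower (median log2 difference −0.56), or 87.5% called against 67.6% of all genes tested. SYVN1 and SEL1L, the ligase and adaptor of endoplasmic reticulum degradation, had log2 differences of −1.21 (SE 0.09, adjusted p = 1.94e-05) and −1.11 (SE 0.10, adjusted p = 4.89e-05). MARCHF9, a membrane ubiquitin ligase that can lower surface class I, was at 18.1, 13.6 and 11.7 CPM in the controls and at 59.8, 56.5 and 69.5 CPM in the LV-ATF7-labeled libraries (log2 difference 2.10, SE 0.17, adjusted p = 2.54e-05).

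**Figure D5:**
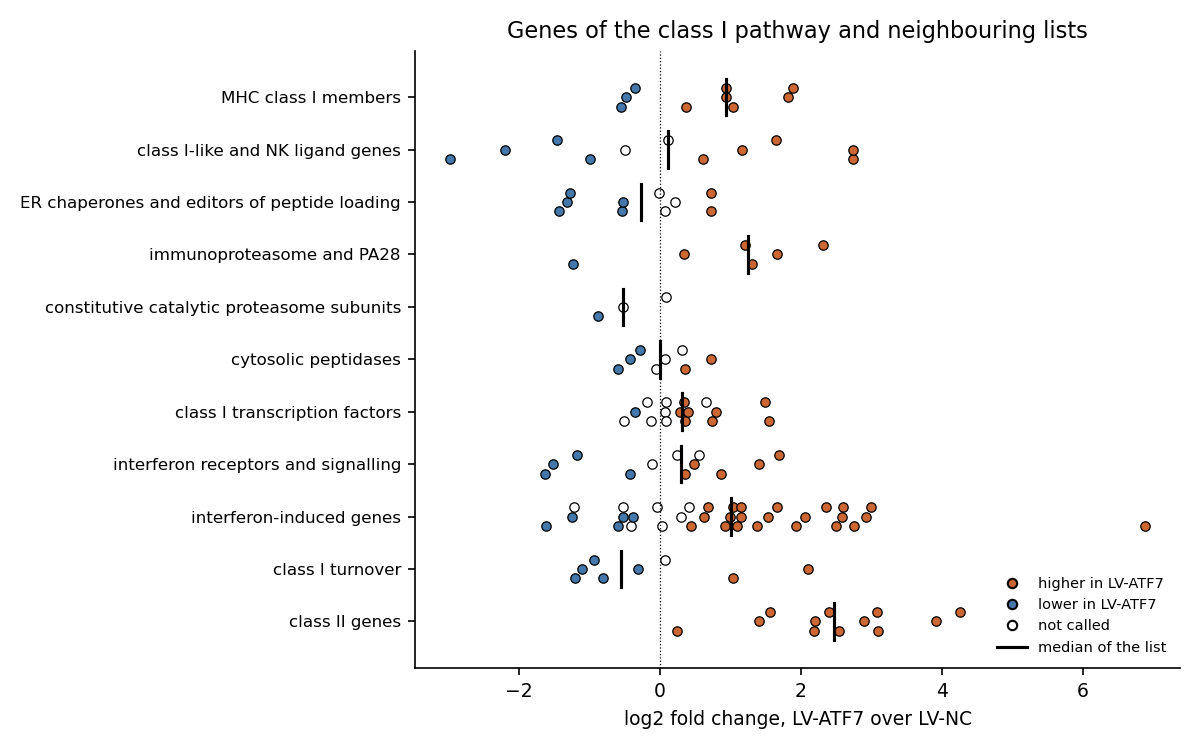
Log2 difference between groups (LV-ATF7 over LV-NC) of every tested gene on each list (points, filled where the adjusted p was under 0.05) with the median of the list as a bar. All 12 class II genes lie above 0, and the 9 class I genes lie on both sides, 6 above and 3 below.

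All 16 keratinocyte markers were in the table, and their summed level was 2560 to 3650 CPM in the controls and 8870 to 9520 CPM in the LV-ATF7-labeled libraries. Of these markers 10 were higher and 1 lower, so 68.8% were called, near the 67.6% of all genes tested. Without LV-NC replicate 1, 12 were higher and 4 lower, with 4989 higher and 5022 lower of all 12495 genes tested. Markers of other cells were few: 4 of 10 for fibroblasts (68.5 to 85.6 CPM in the controls against 156 to 192 CPM), 3 of 13 for monocytes and macrophages (5.57 to 8.13 against 9.38 to 12.7 CPM), 2 of 7 for endothelium (1.12 to 5.50 against 84.6 to 89.9 CPM), 1 of 6 for melanocytes (1.87 to 2.2 against 3.42 to 6.03 CPM) and 0 of 9 for lymphocytes. CD68, PTPRC and LYZ, and PECAM1 and KDR, were among those with no row in the table used here. The part of these marker differences in the class I values was not tested.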

How the data were processed

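RNA from HaCaT cells was enriched for mRNA on oligo(dT) beads and sequenced. In the deposited table the authors give whole-number read counts and FPKM values for 12499 genes in 6 libraries. GRCh 38 is the build per the submitters' processing notes, and the aligner, counting program, strandedness and read length are not given in the sources used here. The deposited p-values and log2 fold changes of the authors' own comparison were not used. All count columns were matched to a sample by their labels. The quasi-likelihood test of edgeR 4.0.16 in R 4.3.3 compared LV-ATF7 with LV-NC on TMM-scaled counts, with no covariate. The filterByExpr step kept 12462 genes (37 were left out), over which p-values were adjusted by the Benjamini-Hochberg method with a threshold of 0.05. The standard error is the log2 difference divided by the square root of F. The deposited table holds genes with at least 51 counts over the 6 libraries.

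Levels are TMM-normalized CPM as mean ± SD of 3 libraries. The FPKM values that the authors deposited served only to read the gene length they imply. Total counts per library, 16686472 to 20562768, make counting error minor except for rare genes, and the floor covers counting error only. Gene positions come from GENCODE release 29, matched by identifier. Likeness was taken over all genes tested, from log2 CPM with a prior count of 2. Only the nearest genes outside the 9 were limited to genes averaging 50 counts or more.

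The members and lists were chosen with earlier results of these data known, and no p-value was computed over a list. Genes were named by a rule: all members, ATF7, up to 3 genes per list with the smallest adjusted p, factors fixed by name (NLRC5, IRF1 and RFX5 are given, and 1 is not reported here), and the 3 genes nearest to HLA-B and to B2M, with exceptions said in place. Alternatives were DESeq2 1.42.0, library size alone, scaling by the upper quartile, testing without a filter, requiring 10 counts in each library, limma 3.58.1 voom with quality weights, a replicate block, and leaving out each library.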

Additional observations from a re-analysis of the deposited data

How the results depend on the processing

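The 9 class I genes kept their direction under all 13 alternatives, and 8 or 9 of them were called. The exception was B2M, with a log2 difference of 0.21 under library size alone and of 0.30 to 0.38 when a library was left out (0.35 without LV-ATF7 replicate 1 and 0.30 without LV-NC replicate 3, where the call was lost). Scaling by library size alone moved the median log2 difference of all genes by −0.16 and the share of calls that were higher from 51.3% to 42.4%, and it moved the log2 ratio of the summed heavy chain level from 0.29 to 0.13, while leaving out a library gave 0.25 to 0.32. Of the constitutive proteasome subunits, 2 rather than 1 were called with DESeq2, with at least 10 counts in every library, with library size alone, with limma voom and without LV-NC replicate 1 (range over left-out libraries 1 to 2). Of the cytosolic peptidases, 2 to 6 were called when a library was left out. PSMB5 turned negative with library size alone (−0.079), limma voom (−0.091) and without LV-NC replicate 1 (range over left-out libraries −0.11 to 0.16). The number of genes called over the alternatives was 7290 to 10391. Among the other named genes, calls changed for PSMB6, gained under 5 alternatives, and for NRDC and NLRC5, lost under 2 each. Where a group has 2 libraries, these are assumed to vary like the other group. The cause was not tested, and reads shared between similar or overlapping genes could not be examined.

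The numbers of the replicates were not taken to pair libraries, since the deviations of same-numbered libraries from their group means correlated at 0.06, −0.02 and 0.06. With a replicate block, 8210 genes were called, 8068 of them also without it, and all 9 class I genes were called.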
